A study of Homo sapiens with 3 samples.

Results

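The genes described here are 7 genes of cholesterol synthesis and its control, SREBF2, INSIG1, HMGCS1, IDI1, FDFT1, SQLE and DHCR7, chosen by name among the 44591 genes of an RNA-seq table. The table covers Caki-1 cells, an established human line of clear cell renal cell carcinoma, 48 h after transfection. The siRNA concentration given in the general transfection methods was 10 nmol/L. The conditions were a control siRNA (si-Control) and 2 siRNAs that target RBCK1, si-RBCK1 #1 and si-RBCK1 #2, which the sample records name by the protein, HOIL-1. Each condition had 1 library from 1 cell line, so no difference has a replicate check and no p-value is given. The siRNAs are different reagents, not replicates, and both comparisons share the same si-Control library. In the table's hg19 coordinates SREBF2 lies at chr22:42229083-42303312, INSIG1 at chr7:155089482-155101945 and HMGCS1 at chr5:43287572-43313614. IDI1 lies at chr10:1085359-1102656, FDFT1 at chr8:11653082-11696818, SQLE at chr8:126010720-126034525 and DHCR7 at chr11:71145457-71159477.

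Cells make cholesterol from acetyl-CoA through the mevalonate pathway, in which isoprenoid units are joined to squalene, which is then closed to a ring and trimmed to cholesterol. SREBP-2, the product of SREBF2, is a membrane-bound transcription factor. When sterols are low, it is carried to the Golgi and cut, and its free part switches on the enzymes of the pathway and LDL uptake. INSIG1 holds it back in the endoplasmic reticulum and is itself a target. None of the 7 genes encodes a protein of LDL uptake, so LDL uptake genes were examined as a list of their own.

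All 7 genes were higher with si-RBCK1 #1 and with si-RBCK1 #2 than with si-Control, and every one was less high with si-RBCK1 #2. Levels are in RPKM (reads per kilobase of gene, scaled to library size). Ratios are log2 ratios of RPKM + 1 over si-Control, where 1 is 2-fold, and folds are ratios of RPKM itself. All limits of 2-fold and 1.5-fold were applied to the ratio of RPKM + 1, which is closer to 1 than the fold. The median log2 ratio of the 7 genes was 1.13 with si-RBCK1 #1 and 0.54 with si-RBCK1 #2. Over the 12403 genes whose mean level reached 1 RPKM, which include all 7, the medians were 0.02 and 0.03. The 7 genes were chosen with earlier results of these data known, so the all-gene values are a scale and no independent test. With si-RBCK1 #1, 5 of the 7 were at least 2-fold higher, against 2.91% of all genes. With si-RBCK1 #2 this held for 1 of the 7, against 2.5% of all genes. That gene, DHCR7, was at least 2-fold higher in both libraries, as were 1.46% of all genes. At a limit of 1.5-fold, 6 and 3 of the 7 were higher, against 12.1% and 11.3% of all genes, and 3 were so in both libraries, against 7.47%. Without the added 1 RPKM, 7 and 4 of the 7 reached 1.5-fold. SREBF2 with si-RBCK1 #1 and HMGCS1 with si-RBCK1 #2 were the ones that crossed the limit. That setting was chosen after seeing the data, and no share of all genes was computed for it. A log2 ratio above 0 in both libraries was found for all 7 and for 43.3% of all genes.

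**Figure D1:**
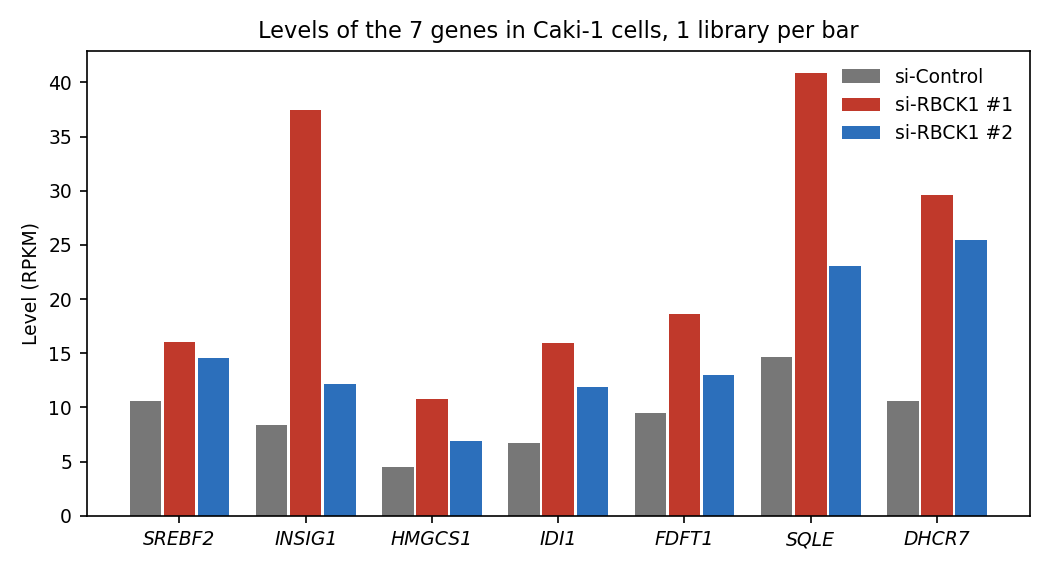
Level in RPKM (vertical axis, from 0) of each of the 7 genes (horizontal axis) in the si-Control, si-RBCK1 #1 and si-RBCK1 #2 libraries, with 1 library per bar and no error bars because there were no replicates. For each gene the si-Control bar is the lowest and the si-RBCK1 #1 bar the highest, with SQLE reaching 40.9 and INSIG1 37.5 RPKM.

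The target was checked in every library. RBCK1 stood at 33.3 RPKM in si-Control cells, 9.97 RPKM after si-RBCK1 #1 and 12.3 RPKM after si-RBCK1 #2, which is 0.299 and 0.368 times the si-Control level. RBCK1 was thus lower in both si-RBCK1 libraries, and lowest with si-RBCK1 #1. Reads behind the RPKM values could be recovered as whole numbers, from totals of 36926834 reads in the si-Control library, 40442939 in the si-RBCK1 #1 library and 36344428 in the other. The 7 genes had at least 506 to 4941 reads per library, each value within 7.01e-07 of a whole number. The 95% intervals given with folds are exact and cover counting error only. Of 8 markers of kidney epithelium and renal carcinoma, 5 had a mean of at least 1 RPKM (PAX8, KRT8, KRT18, CDH6 and VIM), while PAX2, CA9 and KRT19 did not. Summed over the 8 markers, the level was 951, 1914 and 1913 RPKM in the order si-Control, si-RBCK1 #1, si-RBCK1 #2. VIM led the sum, at 664, 1512 and 1392 RPKM in the same order. PAX8 went the other way, at 124, 82.5 and 107 RPKM, while KRT8, KRT18 and CDH6 were higher in both si-RBCK1 libraries. The part of these markers in the results was not tested. In bulk RNA, fewer cells of a type and less RNA per cell cannot be told apart. Each of the 9 markers of hepatocytes, leukocytes and endothelium was at or below 0.381 RPKM in every library.

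The regulators came apart with si-RBCK1 #1 and were close to each other with si-RBCK1 #2. SREBF2 stood at 10.5 RPKM in si-Control cells, 16.0 RPKM after si-RBCK1 #1 and 14.5 RPKM after si-RBCK1 #2. Its folds were 1.52 (1.44 to 1.60) and 1.38 (1.30 to 1.45), with log2 ratios of 0.56 and 0.43, so its si-RBCK1 #1 ratio was the smallest of the 7. INSIG1 stood at 8.39 RPKM in si-Control cells, 37.5 RPKM after si-RBCK1 #1 and 12.2 RPKM after si-RBCK1 #2. The folds were 4.47 (4.17 to 4.79) and 1.45 (1.33 to 1.57), with log2 ratios of 2.03 and 0.49, so INSIG1 had the largest ratio of the 7 with si-RBCK1 #1 and only the fifth largest with si-RBCK1 #2.

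Of the enzymes of the early, mevalonate part, HMGCS1 makes HMG-CoA and IDI1 interconverts the isoprenoid building blocks. HMGCS1 stood at 4.45 RPKM in si-Control cells, 10.8 RPKM after si-RBCK1 #1 and 6.91 RPKM after si-RBCK1 #2. Its folds were 2.42 (2.24 to 2.61) and 1.55 (1.43 to 1.69), with log2 ratios of 1.11 and 0.54. IDI1 stood at 6.73 RPKM in si-Control cells, 15.9 RPKM after si-RBCK1 #1 and 11.9 RPKM after si-RBCK1 #2. Its folds were 2.37 (2.14 to 2.63) and 1.76 (1.58 to 1.97), with log2 ratios of 1.13 and 0.73. Both genes were thus at least 2-fold higher with si-RBCK1 #1 and under 2-fold with si-RBCK1 #2.

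FDFT1, the squalene synthase, and SQLE, the squalene epoxidase, carry out the first steps that lead only to sterols. FDFT1 stood at 9.51 RPKM in si-Control cells, 18.7 RPKM after si-RBCK1 #1 and 13.0 RPKM after si-RBCK1 #2. Its folds were 1.96 (1.85 to 2.09) and 1.37 (1.28 to 1.46), with log2 ratios of 0.90 and 0.41. The interval of the fold with si-RBCK1 #1 spans 2, so on RPKM itself counting error alone leaves FDFT1 on either side of 2-fold. SQLE stood at 14.6 RPKM in si-Control cells, 40.9 RPKM after si-RBCK1 #1 and 23.0 RPKM after si-RBCK1 #2. The SQLE folds were 2.79 (2.64 to 2.96) and 1.57 (1.48 to 1.68), with log2 ratios of 1.42 and 0.62. SQLE had the highest level of the 7 genes in si-Control and si-RBCK1 #1.

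DHCR7 carries out the last reduction on one route to cholesterol. It stood at 10.6 RPKM in si-Control cells, 29.6 RPKM after si-RBCK1 #1 and 25.5 RPKM after si-RBCK1 #2. The folds were 2.80 (2.61 to 3.01) and 2.41 (2.24 to 2.59), with log2 ratios of 1.40 and 1.19, the latter the largest of the 7 with si-RBCK1 #2. In si-Control the order of levels from the highest was SQLE, DHCR7, SREBF2, FDFT1, INSIG1, IDI1 and HMGCS1. With 1 library per condition, which neighbours in this order differ beyond the spread between libraries cannot be said.

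**Figure D2:**
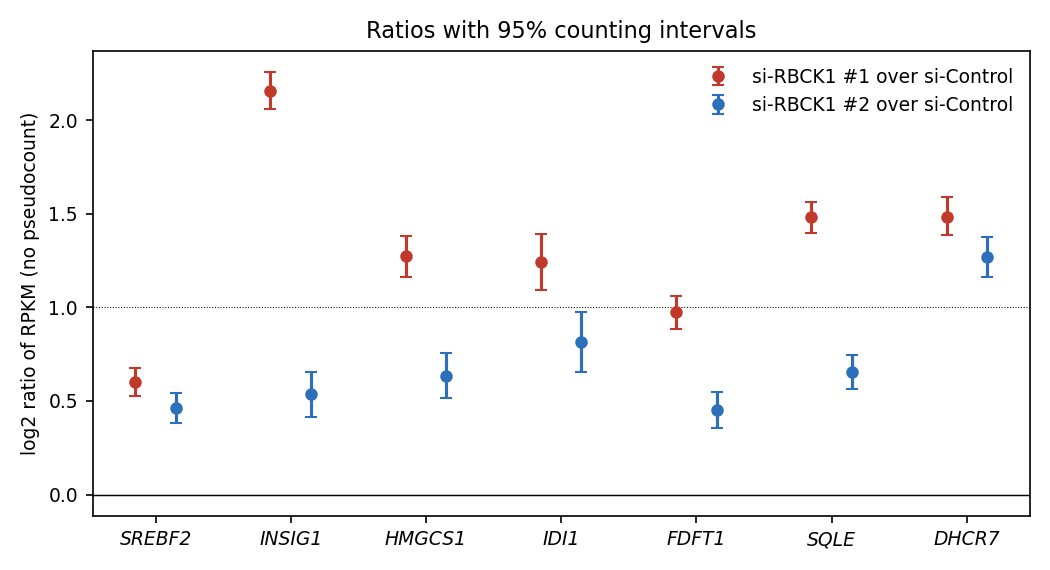
log2 ratio of RPKM over si-Control without a pseudocount (vertical axis) for each of the 7 genes (horizontal axis), with si-RBCK1 #1 and si-RBCK1 #2 as points and exact 95% counting intervals as bars, and a dotted line at 2-fold. All 14 intervals lie above 0, and the si-RBCK1 #1 point is above the si-RBCK1 #2 point for each gene, with the widest gap for INSIG1.

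All 7 genes were lower with si-RBCK1 #2 than with si-RBCK1 #1. Of all genes, 48.2% had the larger log2 ratio with si-RBCK1 #1. The log2 ratio of si-RBCK1 #2 over si-RBCK1 #1 was -1.55 for INSIG1, -0.80 for SQLE and -0.57 for HMGCS1. It was -0.49 for FDFT1, -0.40 for IDI1, -0.21 for DHCR7 and -0.13 for SREBF2, and all 7 counting intervals lay below 0. Over all genes its median was 0.01, with 5th and 95th percentiles of -0.42 and 0.52. INSIG1, SQLE, HMGCS1 and FDFT1 thus lay below the 5th percentile, while IDI1, DHCR7 and SREBF2 lay inside the range. INSIG1 was the only one of the 7 at least 2-fold lower with si-RBCK1 #2 than with si-RBCK1 #1, as were 0.661% of all genes.

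**Figure D3:**
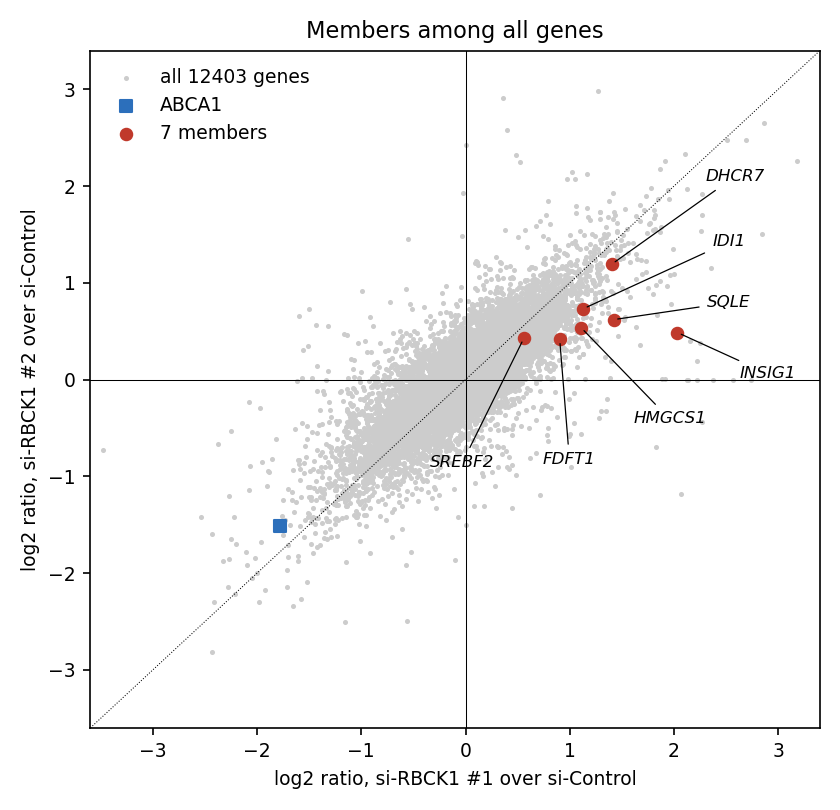
log2 ratio with si-RBCK1 #1 (horizontal axis) against that with si-RBCK1 #2 (vertical axis), on the log2(RPKM + 1) scale, for all 12403 genes (grey), the 7 genes (red circles) and ABCA1 (blue square), each over the same si-Control library. The 7 genes lie to the right of 0 and below the dotted line of equal ratios, INSIG1 farthest from it, and ABCA1 lies at -1.78 and -1.51.

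Because an siRNA can also lower transcripts through its seed (guide bases 2 to 8), the seed sites were counted in the longest protein-coding transcript of each gene. The sense strands are shown because they tell the reagents apart, with capitals marking bases 12 to 18, the letters of the target site that pairs with the seed.
si-RBCK1 #1: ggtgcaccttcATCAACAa
si-RBCK1 #2: ggattaccagcGATTTCTa
Each sense strand was found once, in full, in the RBCK1 transcript. The si-RBCK1 #1 site occurred in 1 of the 7 genes, SQLE, in its coding sequence, and in 23.8% of 10553 genes. The si-RBCK1 #2 site occurred in 2 of the 7 genes, SREBF2 and INSIG1, and in 29.2% of the 10553 genes. Both shares count sites anywhere in the transcript. In SREBF2 and INSIG1 the site lay in the 3′ UTR, for which no share of all genes was computed. These windows show each site in capitals (GRCh38, plus strand, chr22:41905689-41905709 for SREBF2 and chr7:155309414-155309434 for INSIG1).
SREBF2: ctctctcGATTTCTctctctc
INSIG1: cggcaatGATTTCTttcagtt
Among the genes with a site of si-RBCK1 #2 only, the median log2 ratio of si-RBCK1 #2 over si-RBCK1 #1 was -0.0011 over 2124 genes. It was 0.015 over 1552 genes with a site of si-RBCK1 #1 only and 0.0066 over 5916 genes with neither. The interquartile ranges of all 3 groups spanned 0. INSIG1, with the lowest ratio of the 7, and SREBF2, with the ratio nearest 0, both held a si-RBCK1 #2 site. The part of these sites in the values of the 7 genes was not tested.

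SREBP-2 binds sterol response elements, and the promoters of its targets often also hold a CCAAT box, the site of the factor NF-Y. In RefSeq promoters (GRCh38.p14, 250 bases before to 50 after the first start listed), 5 of the 7 genes were matched. FDFT1 and SQLE were not matched. The element TCACNCCAC, searched on both strands, occurred in SREBF2 alone of the 5, starting at -133 from the start site. It occurred in 1.15% of 8546 promoters of protein-coding genes used, and in 0 of 14 promoters of other enzymes of sterol synthesis. The CCAAT box, searched on both strands, occurred in 4 of the 5, in all but IDI1, and in 37.2% of the 8546. It also occurred in 10 of the 14 promoters of other enzymes. Of the 3 starts listed for IDI1, 2 held the CCAAT box. HMGCS1 and DHCR7 had 2 starts listed each, of which 1 held it, so the count depends on the start taken. The GC box, spelled GGGCGG and searched on both strands, occurred in all 5, against 72.2% of the 8546 and 11 of the 14. For DHCR7, 1 of the 2 starts listed held the GC box. The E-box, spelled CACGTG, the same on both strands, occurred in INSIG1 alone, against 10.8% of the 8546 and 2 of the 14. Matches of different motifs did not overlap in these 5 promoters. The promoters of SREBF2, of INSIG1, with the largest gap between the siRNAs, and of DHCR7, the gene at least 2-fold higher with both, are printed with matches to the sterol response element and the CCAAT box in capitals. A box on the opposite strand reads ATTGG. SREBF2 is at chr22:41832855-41833154 (plus), INSIG1 at chr7:155297628-155297927 (plus) and DHCR7 at chr11:71448344-71448643 (minus).
SREBF2: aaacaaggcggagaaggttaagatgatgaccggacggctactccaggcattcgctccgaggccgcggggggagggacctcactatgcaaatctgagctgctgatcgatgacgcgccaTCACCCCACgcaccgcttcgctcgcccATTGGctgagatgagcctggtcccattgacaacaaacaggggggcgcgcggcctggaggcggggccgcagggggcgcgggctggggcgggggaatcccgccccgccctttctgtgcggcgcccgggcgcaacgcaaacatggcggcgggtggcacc
INSIG1: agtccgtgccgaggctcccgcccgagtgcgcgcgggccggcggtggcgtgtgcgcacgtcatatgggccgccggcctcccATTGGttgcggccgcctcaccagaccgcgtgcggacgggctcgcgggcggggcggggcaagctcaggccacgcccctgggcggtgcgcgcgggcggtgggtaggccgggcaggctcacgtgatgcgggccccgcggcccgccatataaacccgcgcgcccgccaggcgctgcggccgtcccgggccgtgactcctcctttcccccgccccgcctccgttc
DHCR7: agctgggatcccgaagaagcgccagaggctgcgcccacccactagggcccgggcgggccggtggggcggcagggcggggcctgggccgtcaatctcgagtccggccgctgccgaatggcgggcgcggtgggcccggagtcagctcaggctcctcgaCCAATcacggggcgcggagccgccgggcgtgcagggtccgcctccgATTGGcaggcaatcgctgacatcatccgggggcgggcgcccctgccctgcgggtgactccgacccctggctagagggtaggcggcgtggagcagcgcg
A match says only that these letters are present, and a missing match says only that this spelling is absent from the window.

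The other enzymes of sterol synthesis were also mostly higher. All 17 on the list passed the filter, and the median log2 ratio was 0.83 after si-RBCK1 #1 but 0.52 after si-RBCK1 #2. Of these, 8 were at least 1.5-fold higher in both libraries, against 7.47% of all genes.

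Among them, 6 had larger log2 ratios with si-RBCK1 #1. MVK, mevalonate kinase, had log2 ratios of 0.99 and 0.60, and MVD, the decarboxylase that follows, 1.01 and 0.88. FDPS, farnesyl diphosphate synthase, had log2 ratios of 0.84 and 0.70. CYP51A1, the lanosterol demethylase, had 0.83 and 0.67, NSDHL, a sterol dehydrogenase, 1.04 and 0.67, and EBP, a sterol isomerase, 1.04 and 0.94. TM7SF2, a sterol reductase of the ring, ran the other way at 2.96 RPKM in si-Control cells, 0.834 RPKM after si-RBCK1 #1 and 2.03 RPKM after si-RBCK1 #2. The TM7SF2 log2 ratios were -1.11 and -0.39, and the si-RBCK1 #1 value rests on at least 54 reads. In all, 12 of these 17 enzymes had the larger log2 ratio with si-RBCK1 #1, as did 48.2% of all genes.

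**Figure D4:**
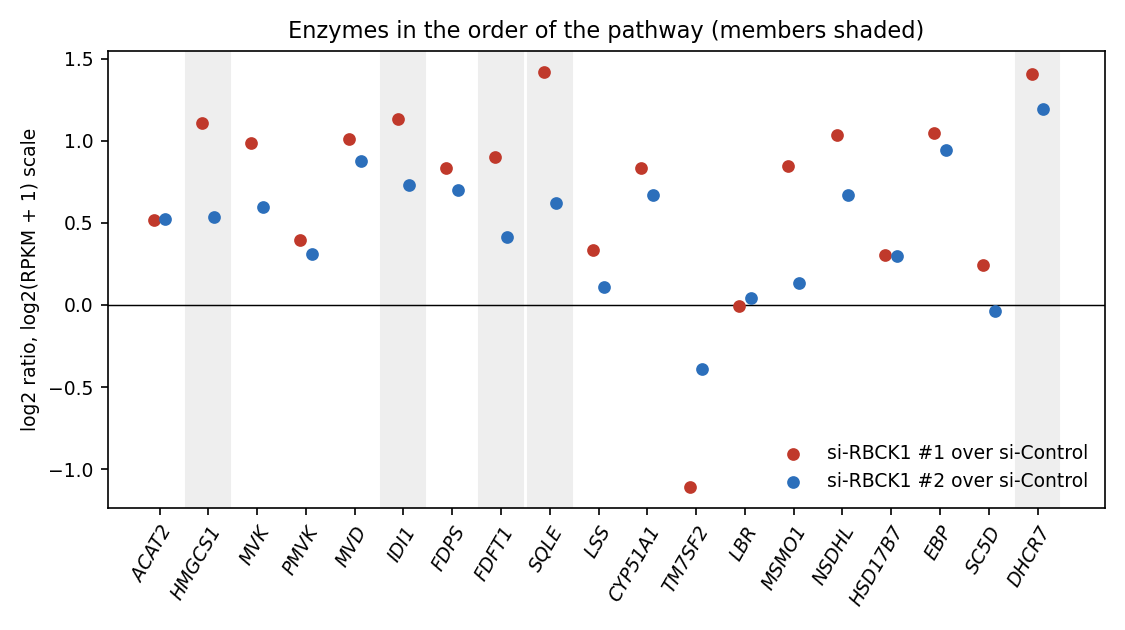
log2 ratio over si-Control on the log2(RPKM + 1) scale (vertical axis) of enzymes of sterol synthesis placed in the order of the pathway (horizontal axis), red for si-RBCK1 #1 and blue for si-RBCK1 #2, with the enzymes among the 7 genes shaded. Not all enzymes of the list are drawn, and TM7SF2 lies below 0 in both libraries.

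On the LDL uptake list 10 of 11 genes passed the filter, with median log2 ratios of 0.29 and 0.27. At least 1.5-fold higher in both libraries was 1 of the 10, against 7.47% of all genes. VLDLR, a lipoprotein receptor, was the only gene on the list at least 1.5-fold lower in both libraries, with log2 ratios of -0.61 and -0.59, against 6.24% of all genes.

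Genes that control SREBP showed no common direction, with 9 of 9 passing and median log2 ratios of -0.11 and -0.01. MBTPS2, the protease that makes the second cut in SREBP, was the only one of the 9 at least 1.5-fold changed in both libraries. Its log2 ratios were -0.74 and -0.70, and 6.24% of all genes were at least 1.5-fold lower in both. MBTPS1, which makes the first cut, had log2 ratios of 0.33 and 0.29. Of the paralogs, SREBF1 had log2 ratios of 0.16 and 0.40 and INSIG2 of -0.31 and -0.39, so INSIG2 was lower where INSIG1 was higher. IDI2 had 0.24 (-0.014 to 0.504) and -0.10 (-0.358 to 0.169), so both counting intervals span 0. Its values rest on at least 125, 171 and 111 reads in si-Control, si-RBCK1 #1 and si-RBCK1 #2.

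Sterol efflux and esterification genes had median log2 ratios of -0.11 and -0.01 over the 7 of 10 that passed. ABCA1, which exports cholesterol, stood at 27.8 RPKM in si-Control cells, 7.39 RPKM after si-RBCK1 #1 and 9.13 RPKM after si-RBCK1 #2. The log2 ratios for ABCA1 were -1.78 and -1.51, the only change of at least 1.5-fold in both libraries on this list. That limit was passed downward in both libraries by 6.24% of all genes. NR1H2, a sterol-sensing nuclear receptor, had log2 ratios of 0.45 and 0.62. On the isoprenoid branch outside sterols, 7 of 8 genes passed, with median log2 ratios of -0.07 and -0.17. PDSS1, which makes the side chain of ubiquinone, had log2 ratios of 0.72 and 0.76, and PGGT1B, a subunit of a prenyl transferase, -0.67 and -0.70.

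All 9 fatty acid synthesis genes passed, with median log2 ratios of 0.44 and 0.34. At least 1.5-fold higher in both libraries were 4 of the 9, against 7.47% of all genes. FASN, the fatty acid synthase, had log2 ratios of 1.49 and 1.44, and ACLY, which makes cytosolic acetyl-CoA, 1.08 and 1.00. SCD, a desaturase, had 1.17 and 0.76, and FADS2, another desaturase, 0.77 and 0.84. ELOVL6, an elongase, was at least 1.5-fold lower in both libraries, with log2 ratios of -0.83 and -0.78, against 6.24% of all genes.

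Among 5543 protein-coding genes whose mean level reached 10 RPKM, the 3 whose pair of log2 ratios lay nearest to the pair of medians of the 7 genes were EXTL3 (1.18 and 0.50), TUSC2 (1.07 and 0.50) and EPDR1 (1.13 and 0.64). Their distances were 0.067, 0.078 and 0.099 on the log2 scale, over 3 libraries. Within 0.30, the median distance of the 7 genes themselves, lay 70 of the 5543 genes. The 7 genes were not held to the limit of 10 RPKM, which HMGCS1, at a mean of 7.38 RPKM, did not reach. Some of the 7 overlap other genes. IDI1 shares 4783 bases with IDI2-AS1 on the other strand. IDI2-AS1 stood at 0.062, 0.512 and 0.569 RPKM in the order si-Control, si-RBCK1 #1, si-RBCK1 #2. SREBF2 shares 1587 bases with an antisense gene at 0.353, 0.794 and 1.32 RPKM in the same order, so both were higher in the si-RBCK1 libraries. SREBF2 also holds MIR33A on its own strand, at 0.392, 0 and 0 RPKM. HMGCS1 shares 3239 bases with an antisense gene at 0 RPKM in every library. Whether counting used strand is not given in the sources used here, so reads of overlapping genes may not be told apart.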

How the data were processed

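RNA-seq of 3 Caki-1 libraries, 1 per condition, was analysed. The authors deposited 1 RPKM value per gene and library, and the sample records name FastQC, Trimmomatic, TopHat2, HTSeq and hg19, with no roles given. They describe ribosomal RNA removal, a directional kit and paired-end sequencing, while the methods name another sequencing provider. The columns of the authors' own comparison were not used. Log2 ratios were taken after adding 1 RPKM (the pseudocount), and a gene was used if its mean level reached 1 RPKM. Library totals were found from RNAs of up to 200 nt, and reads as the smallest whole numbers that give a gene's 3 RPKM values, so they are lower bounds. Intervals are Clopper-Pearson (95%). The 7 genes and the lists were chosen with earlier results of these data known. Beside the 7 genes, RBCK1 and the paralogs, list genes are named that changed at least 1.5-fold in 1 direction with both siRNAs or had the largest rise or fall, and so are the 3 nearest genes; some genes that this rule names are not reported here. Seed and promoter matches were searched in GENCODE v29 transcripts and RefSeq promoters. Alternatives were pseudocounts of 0.1 and 5 RPKM or none, other scalings, filters and limits, and means. The steps were tested on simulated data. Scripts ran in Python 3.11.15 with scipy 1.17.1, pandas 2.3.3 and numpy 2.4.6, and plots in matplotlib 3.10.9.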

Additional observations from a re-analysis of the deposited data

How the results depend on the processing

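No log2 ratio of the 7 genes and no list median changed sign under any alternative run. With a pseudocount of 5 RPKM the medians of the 7 genes were 0.836 with si-RBCK1 #1 and 0.358 with si-RBCK1 #2, and 3 and 0 genes were at least 2-fold higher, since a larger pseudocount shrinks ratios of genes at these levels. With a limit of 1.5-fold on RPKM + 1 the count with si-RBCK1 #2 was 3. That limit on RPKM itself, an alternative chosen after seeing the data, gave 7 with si-RBCK1 #1 and 4 with si-RBCK1 #2. For that last setting no share of all genes was computed. The share of all genes at least 2-fold higher, 2.91% with si-RBCK1 #1 and 2.5% with si-RBCK1 #2, was 4.97% and 4.54% with a pseudocount of 0.1 RPKM, 0.919% and 0.814% with 5 RPKM, and 0.998% and 0.821% with no filter on low values. Of the 70 ratios of single genes under alternatives, 52 stayed inside their counting interval and 18 moved beyond it, while of 84 list medians 78 stayed inside the median of the bounds of their genes and 6 moved beyond it. Scaling the libraries to equal medians or equal totals changed the si-RBCK1 RPKM values by log2 factors of -0.0566 to -0.0094. The log2 ratios of RPKM + 1 shifted by less than these factors. No paired analysis was possible because a single library was made for each condition, and for the same reason no replicate could be left out. Genes with few reads, such as TM7SF2, are limited most by depth.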
